A study of Homo sapiens with 8 samples.

Results

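Polycomb repressive complex 2 (PRC2) is built from a small set of genes, and 10 of them are described here: the core genes EZH2, EZH1, EED, SUZ12 and RBBP4, and the accessory genes JARID2, AEBP2, PHF1, PHF19 and MTF2. They were chosen by name for their place in the complex, not by any measured value, and are 10 of the 19962 protein-coding genes annotated on chromosomes 1 to 22 and X. For each gene, every open chromatin peak in the gene body or within 5 kb of one of its transcription start sites (TSSs) was taken from 8 ATAC-seq libraries. ATAC-seq cuts accessible DNA with the Tn5 transposase, so a peak marks a stretch where the enzyme could enter the chromatin. The libraries came from 4 stable lines of HEK293T, a human embryonic kidney line in wide laboratory use, with 2 libraries per line. According to the study's methods, the lines were all infected with lentivirus and selected with blasticidin. They carried wild-type EZH2 (EZH2 WT), the gain-of-function (GOF) mutants EZH2 Y641F or EZH2 A677G, or the loss-of-function (LOF) double mutant EZH2 H689A/F667I. All lines therefore held an added EZH2 coding sequence beside the EZH2 gene of the cell. The methods call each line monoclonal, so the 2 libraries of a line describe 1 line, and the effect of a mutation and of the line that carries it cannot be told apart. A line with an empty vector was not analysed here.

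PRC2 places methyl groups on lysine 27 of histone H3, a mark of repressed genes. EZH2 and EZH1 are the alternative catalytic subunits, EED binds the finished mark and stimulates the enzyme, SUZ12 holds the complex together, and RBBP4 binds histones. The accessory proteins define 2 forms of the complex: PHF1, PHF19 and MTF2, the Polycomb-like proteins, bring PRC2 to CpG-rich DNA, whereas JARID2 and AEBP2 form the other variant. The comparison asked whether cells with a GOF or LOF EZH2 differed from EZH2 WT in the accessibility of the genes that encode the complex itself.

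The peak lists of the 8 libraries differed in size, from 26350 peaks in Y641F replicate 1 to 64923 in WT replicate 1, and the read depth is unknown. The share of protein-coding genes with a peak within 1 kb of the canonical TSS ranged from 56.4% to 69.1%. The library median over 10968 promoters open in all 8 libraries ranged from 4.02 to 4.39 for the fold enrichment over local background given by MACS2, from 7.49 to 12.8 for its −log10 p, and from 745 to 1230.5 bp for peak width. Both WT libraries had the highest medians and Y641F replicate 1 the lowest. Line differences were therefore tested on log2 values after the library median was subtracted ("centred"), and values as deposited stand beside them where the 2 scales differ. As a check of the cell label, 6 of 7 renal lineage genes and 2 of 3 neuronal filament genes known from HEK293 lines had a promoter peak in all 8 libraries, while the renal gene PAX8 had none. Of 4 blood genes 3 had none and 1 had a peak in 1 library, and both liver genes had none.

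All 10 PRC2 genes were open at the canonical promoter in all 8 libraries, in 80 of 80 combinations of gene and library, against 54.9% of all protein-coding genes. When each list was cut to its 26350 strongest peaks, 76 of 80 remained, and PHF19 was the gene that lost its peak, in 4 libraries. At a minimum −log10 q of 5, 55 of 80 remained: EZH2, RBBP4, JARID2 and PHF1 were still open in all 8 libraries, whereas PHF19 was open in 0. The plot of promoter values by library shows the 3 measures for every gene.

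**Figure D1:**
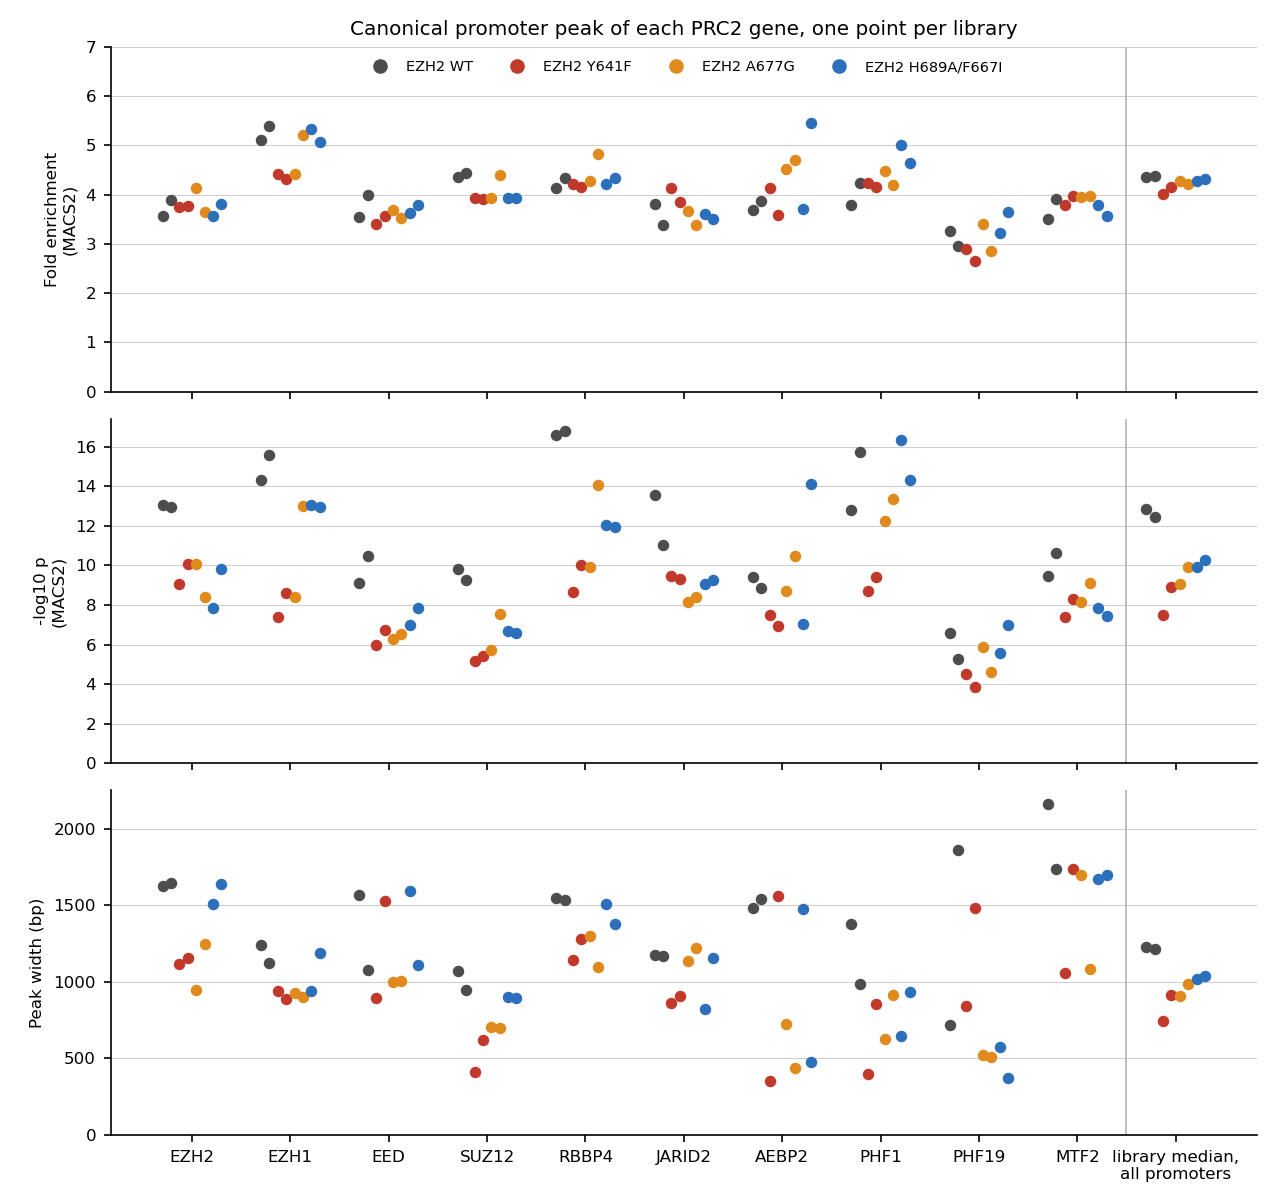
Fold enrichment (top), −log10 p (middle) and peak width in bp (bottom) of the leading canonical promoter peak for the 10 PRC2 genes, 1 point per library, coloured by EZH2 line, with the median over 10968 promoters of each library at the right. EZH1 reaches a fold of 5.40 and PHF19 stays at 3.66 or below, and both WT points lie at the top of the library medians in all panels.

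Ranked within each library by fold among the 10968 promoters, EZH1 stood highest with a median percentile of 76.3, followed by PHF1 (53.9), RBBP4 (50), SUZ12 (43.0), AEBP2 (42.0), MTF2 (33.0), EZH2 (29.2), EED (22.9), JARID2 (22.7) and PHF19 (6.70). Neighbours in this order overlapped in their ranges over the 8 libraries. The 2 ends were separate: EZH1 ranged from percentile 56.0 to 82.7 and PHF19 from 1.08 to 22.6. The PRC2 promoters were thus spread over the range of open promoters. By fold the ranges of the catalytic pair did not overlap, with EZH2 between percentiles 19.5 and 43.5. This order held for fold only. By −log10 p the ranges of EZH2 and EZH1 overlapped. By width they overlapped too, and EZH2 had the higher median percentile, 80.2 against 49.1.

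EZH2 encodes the catalytic subunit that the study mutated. The gene lies at chr7:148807257-148884321, minus strand (hg38), with its canonical TSS at 148884291. The promoter peak had a fold of 3.58 and 3.90 in the WT libraries, 3.76 and 3.77 in Y641F, 4.13 and 3.64 in A677G, and H689A/F667I had 3.56 and 3.81. The lines overlapped. The centred log2 difference from WT was 0.11 ± 0.10 (SE) in Y641F and 0.09 ± 0.10 in A677G, with adjusted p of 0.53 and 0.70 (limma). It was 0.0039 ± 0.10 in the LOF line (adjusted p = 0.995). Width was 1627 and 1645 bp in WT, 1119 and 1154 bp in Y641F, 947 and 1246 bp in A677G, and H689A/F667I had 1511 and 1637 bp. All 4 GOF libraries were narrower than the other 4 as deposited. After centring they overlapped, and the log2 difference of GOF from the rest was -0.18 ± 0.12 (SE, adjusted p = 0.48). The stretch covered by a peak in every library ran from 491 bp upstream to 138 bp downstream of the TSS. This is the DNA just upstream of the EZH2 start, shown because it lies inside that shared stretch, from RefSeq (GRCh38.p14), chr7:148884322-148884541, minus strand, with GC boxes (GGGCGG) and CCAAT boxes (CCAAT) in capitals on either strand:
EZH2 promoter: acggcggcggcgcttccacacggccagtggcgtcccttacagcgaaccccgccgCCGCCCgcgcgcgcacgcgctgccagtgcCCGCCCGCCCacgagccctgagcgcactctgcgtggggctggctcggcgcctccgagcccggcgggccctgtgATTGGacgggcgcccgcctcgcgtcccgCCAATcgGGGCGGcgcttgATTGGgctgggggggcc
It holds 4 GC boxes, 2 of which overlap, and 3 CCAAT boxes. The 300-base window of the RefSeq table, from 250 bases before to 50 after the start, had a GC content of 74.7% and 46 CpG sites, above 96.2% of 21548 such windows of protein-coding genes. It also held 1 letter match to an E2F site (TTTCGCGC, TTTGGCGC or TTCCCGCC), found in 5.5% of windows and lying outside the exon-free part printed.

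EZH1 (chr17:42700275-42745049, minus strand), the catalytic paralog found mainly in cells that divide little, had the highest median rank by fold of the 10 promoters. Its fold was 5.12 and 5.40 in WT, 4.42 and 4.33 in Y641F, 4.43 and 5.21 in A677G, and H689A/F667I had 5.33 and 5.07. Both Y641F libraries and A677G replicate 1 lay below the WT and LOF libraries, and A677G replicate 2 lay among them. The centred difference from WT was -0.17 ± 0.10 (SE) for Y641F and -0.09 ± 0.10 for A677G, with adjusted p of 0.37 and 0.73 (limma). In H689A/F667I it was 0.01 ± 0.10 (adjusted p = 0.99).

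EED (chr11:86201212-86278813, plus strand), the reader of the methyl mark, varied little in fold, from 3.41 to 4.00 over the 8 libraries. Its centred log2 differences from WT were -0.01 in Y641F, -0.02 in A677G and 0.0032 in the LOF line, each with an SE of 0.09. Its −log10 p as deposited was 9.13 and 10.5 in WT, 7.01 and 7.84 in H689A/F667I, and 5.99 to 6.73 in the 4 GOF libraries. The GOF libraries did not overlap the others, as for 18% of the 10968 promoters, and they overlapped after centring. A long noncoding RNA gene, ENSG00000288809, starts on the opposite strand 220 bp from the EED TSS, so the peak cannot be assigned to 1 of them.

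SUZ12 (chr17:31937007-32001038, plus strand), the scaffold of the complex, was the only gene of the 10 called in width, and only as deposited. Its width was 1071 and 946 bp in WT, 410 and 622 bp in Y641F, 705 and 696 bp in A677G, and H689A/F667I had 904 and 894 bp. All GOF values lay below all WT and LOF values as deposited, as for 14.7% of promoters, and they overlapped after centring. As deposited, the log2 difference of Y641F from WT was -0.995 ± 0.22 (SE, adjusted p = 0.046, limma), where 9.08% of promoters were called narrower. After centring it was -0.43 ± 0.17 (SE) with an adjusted p of 0.25, and that of GOF from the rest was -0.33 ± 0.12 (adjusted p = 0.30). The fold was 4.37 and 4.43 in WT, 3.92 to 3.94 in 5 of the 6 mutant libraries, and 4.40 in A677G replicate 2. The 250 bases before the SUZ12 start, free of annotated exons, are printed because this peak was called narrower in Y641F as deposited (RefSeq, GRCh38.p14, chr17:31936757-31937006, plus strand, same boxes in capitals):
SUZ12 promoter: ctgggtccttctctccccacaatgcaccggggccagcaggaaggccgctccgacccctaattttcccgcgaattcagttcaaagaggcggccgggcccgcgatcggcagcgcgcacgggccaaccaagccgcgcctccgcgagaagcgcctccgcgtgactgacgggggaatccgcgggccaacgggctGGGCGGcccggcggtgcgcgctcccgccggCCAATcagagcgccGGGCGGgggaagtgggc
It holds 2 GC boxes and 1 CCAAT box, and the stretch open in all libraries spanned 265 bp upstream to 144 bp downstream of the start.

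RBBP4 (chr1:32651142-32686211, plus strand), a histone-binding protein shared with other chromatin complexes, had a promoter peak with a fold between 4.13 and 4.83. Its width was 1549 and 1532 bp in WT, 1142 and 1279 bp in Y641F, 1297 and 1099 bp in A677G, and H689A/F667I had 1511 and 1379 bp. The GOF libraries were all narrower as deposited and overlapped the rest after centring, with a difference of 0.03 ± 0.13 (SE, adjusted p = 0.90). ZBTB8OS starts 305 bp away on the other strand, so both genes share this peak.

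Among the accessory genes, JARID2 (chr6:15246069-15522042, plus strand) encodes a protein that recruits and stimulates PRC2. Its fold was 3.82 and 3.39 in WT, 4.14 and 3.85 in Y641F, 3.67 and 3.39 in A677G, and H689A/F667I had 3.6 and 3.51. The Y641F libraries were the 2 highest, at a centred difference of 0.25 ± 0.10 (SE) from WT, which did not pass the threshold (adjusted p = 0.17, limma). A second protein-coding start of JARID2 lies further into the gene. A region centred 2.50 kb past the canonical TSS was open there in both WT libraries (fold 2.26 and 2.48), A677G replicate 1 (2.42) and both H689A/F667I libraries (2.32 and 2.16), but not in A677G replicate 2 or either Y641F library.

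AEBP2 (chr12:19404045-19720801, plus strand), a zinc finger protein of the same variant, had a promoter that varied within lines. The fold was 3.70 and 3.87 in WT, 4.14 and 3.59 in Y641F, 4.52 and 4.71 in A677G, and H689A/F667I had 3.70 and 5.46. Its width fell into wide peaks of 1473 to 1563 bp in 4 libraries, namely both WT, Y641F replicate 2 and H689A/F667I replicate 1, and narrow ones of 352 to 727 bp in the other 4. The narrow peaks ended between 156 and 556 bp past the TSS and the wide ones between 1247 and 1323 bp past it. The 2 libraries of Y641F, and those of H689A/F667I, thus fell on different sides. Fold split the same way, at 4.14 to 5.46 for the narrow peaks and 3.59 to 3.87 for the wide ones. The 2 measures therefore did not vary separately at this promoter. In A677G replicate 2 and Y641F replicate 1, 2 separate peaks stood in the window. The SE of the width difference, 0.73 on the log2 scale, was the largest of the 10 genes.

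PHF1, PHF19 and MTF2 encode the Polycomb-like proteins. PHF1 (chr6:33410399-33416453, plus strand) had a fold of 3.80 and 4.25 in WT, 4.25 and 4.15 in Y641F, 4.48 and 4.20 in A677G, and H689A/F667I had 5.00 and 4.64. The LOF libraries were the 2 highest, with a centred difference from WT of 0.29 ± 0.10 (SE, adjusted p = 0.44, limma). In 7 of 8 libraries this peak ended upstream of the canonical TSS, and the stretch open in all libraries lay from 946 to 546 bp upstream of it. That stretch covers position 33410399, where the annotated PHF1 gene begins.

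MTF2 (chr1:93079235-93139079, plus strand) had a fold of 3.5 and 3.91 in WT, 3.79 and 3.98 in Y641F, 3.95 and 3.97 in A677G, and H689A/F667I had 3.79 and 3.56. After centring, all 4 GOF libraries lay above the other 4 for fold and for −log10 p, as for 5.06% and 4.39% of all promoters. MTF2 was the only 1 of the 10 genes with this pattern. The difference of GOF from the rest was 0.15 ± 0.07 (SE) for fold and 0.27 ± 0.12 for −log10 p, with adjusted p of 0.27 and 0.29 (limma). As deposited, the groups overlapped in both measures. The exon-free DNA before the MTF2 start (RefSeq, GRCh38.p14, chr1:93079033-93079234, plus strand) is printed as the promoter with the GOF values on top:
MTF2 promoter: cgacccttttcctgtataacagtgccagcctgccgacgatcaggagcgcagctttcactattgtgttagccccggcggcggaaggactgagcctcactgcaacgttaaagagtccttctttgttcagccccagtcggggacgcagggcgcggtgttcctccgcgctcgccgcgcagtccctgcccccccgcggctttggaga
It holds none of the motifs searched, the GC box, CCAAT box, E2F site, NRF1 core (CGCATGCG), ETS core (CCGGAAG) and YY1 core (AAGATGGCG), and the whole 300-base window has 28 CpG sites against a median of 21 over all windows.

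PHF19 (chr9:120855651-120894896, minus strand) had the canonical promoter with the lowest median rank by fold, and a stronger one inside the gene. At the canonical start, position 120877188, the fold was 3.26 and 2.97 in WT, 2.89 and 2.65 in Y641F, 3.41 and 2.86 in A677G, and H689A/F667I had 3.23 and 3.66. The leading peaks there shared no base over all 8 libraries: in 2 of them they lay wholly upstream of the TSS, in 4 wholly downstream, and in 2 across it. The second region (chr9:120868425-120869815), centred 8.07 kb past the canonical TSS at another protein-coding start and touching exon 6 of the canonical transcript, had a fold of 5.10 and 5.19 in WT, 3.63 and 3.97 in Y641F, 4.11 and 3.83 in A677G, and H689A/F667I had 4.48 and 4.34. In each library it was stronger than the canonical peak. All 4 GOF libraries lay below the WT and LOF libraries, with a mean centred log2 difference of -0.24 (exact permutation test, two-sided, p = 0.0286, the smallest that 70 assignments allow). Any promoter whose GOF values do not overlap the others reaches this p, so it adds nothing to that order.

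In a fit that took the strongest coding promoter of each of 11407 genes, this internal PHF19 promoter differed from WT by -0.34 ± 0.09 (SE) in Y641F (adjusted p = 0.068, limma), against 1.85% of genes called. It differed by -0.34 ± 0.09 in A677G (adjusted p = 0.17, 0% called), by -0.20 ± 0.09 in H689A/F667I (adjusted p = 0.56, 0% called), and by -0.24 ± 0.06 in GOF against the rest (adjusted p = 0.11, 0.0877% called). None passed the threshold of 0.05 after centring. Without centring the Y641F difference was -0.44 ± 0.09 (adjusted p = 0.035), and 4.04% of genes were called lower on that scale. The GOF libraries lay wholly below the rest at 3.33% of genes for fold and at 2.79% for −log10 p, and PHF19 was among them in both.

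The 250 bases before each PHF19 start are free of annotated exons and are printed to compare the weak and the strong promoter of 1 gene (RefSeq, GRCh38.p14, minus strand). The canonical one is at chr9:120877189-120877438 and the internal one at chr9:120868912-120869161, with GC boxes, CCAAT boxes, ETS and YY1 cores in capitals:
PHF19 canonical promoter: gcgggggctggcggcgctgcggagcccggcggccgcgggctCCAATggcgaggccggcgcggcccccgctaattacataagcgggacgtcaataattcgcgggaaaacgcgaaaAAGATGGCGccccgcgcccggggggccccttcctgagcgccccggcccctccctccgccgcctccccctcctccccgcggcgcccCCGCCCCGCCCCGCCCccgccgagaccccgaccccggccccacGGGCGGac
PHF19 internal promoter: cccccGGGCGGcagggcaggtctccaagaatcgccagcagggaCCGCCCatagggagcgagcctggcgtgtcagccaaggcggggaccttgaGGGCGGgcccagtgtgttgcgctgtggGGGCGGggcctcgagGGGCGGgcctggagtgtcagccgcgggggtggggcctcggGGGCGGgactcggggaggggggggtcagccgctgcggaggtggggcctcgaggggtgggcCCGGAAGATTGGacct
The weaker canonical promoter was the more CpG-rich of them, with 48 CpG sites in its 300-base window against 26 in the internal one. The canonical stretch holds 4 GC boxes, 3 of which overlap, 1 CCAAT box and 1 YY1 core, which 2.45% of windows hold. The internal stretch holds 6 GC boxes, 1 CCAAT box and 1 ETS core, which 12.9% of windows hold.

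**Figure D2:**
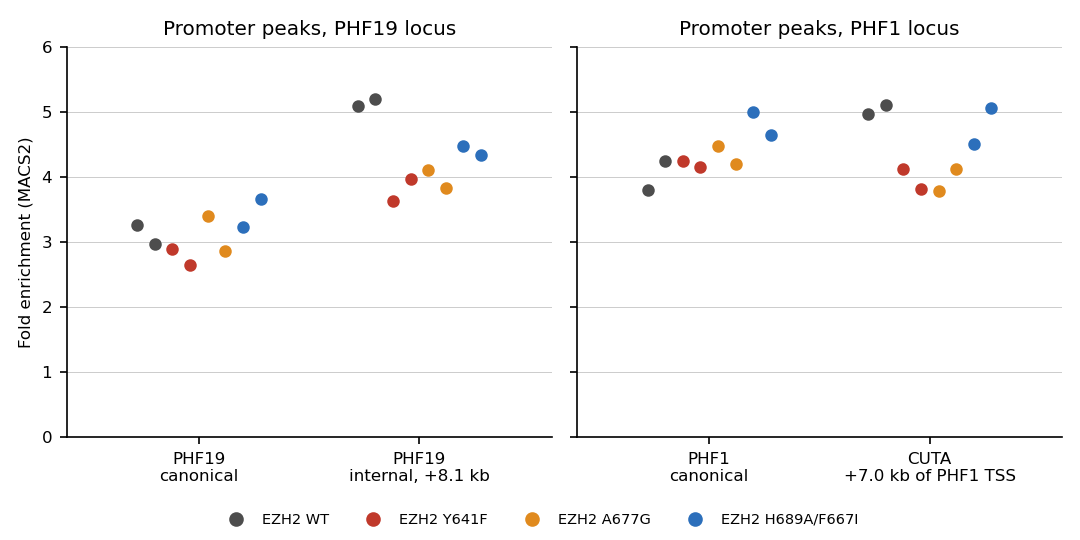
Fold enrichment of the canonical promoter peak and of the second coding promoter region at the PHF19 locus (left) and the PHF1 locus (right), 1 point per library, coloured by EZH2 line. At the internal PHF19 promoter the 4 GOF points (3.63 to 4.11) lie below the other 4 (4.34 to 5.19), and the same holds at the CUTA promoter, whereas the canonical promoters overlap.

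A neighbouring gene met the 5 kb rule at PHF1. A region (chr6:33417279-33418755) centred 7.003 kb past the PHF1 TSS covers the start of CUTA, which is not a PRC2 gene. Its fold was 4.97 and 5.10 in WT, 4.12 and 3.82 in Y641F, 3.78 and 4.13 in A677G, and H689A/F667I had 4.52 and 5.06. The GOF libraries lay below the others, at a centred difference of -0.25 ± 0.07 (SE, adjusted p = 0.12, limma). The plot of second promoters shows both loci.

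Over the 10 canonical promoters, no gene passed an adjusted p of 0.05 in limma after centring, in any of 3 measures and 4 contrasts. For fold, 0 of 10 were called. Over all promoters 2.52% were called for Y641F, 0% for A677G, 0% in the LOF line and 0.0912% in GOF against the rest. In each of these contrasts 1 of 10 had an unadjusted p under 0.05, against 22.3%, 14.3%, 8.86% and 18.1% of all promoters. For −log10 p the calls were again 0 of 10, against 2.21%, 0%, 0% and 0.383%, with 0, 0, 1 and 1 genes at an unadjusted p under 0.05, beside 19.4%, 13.0%, 9.09% and 16.2% of all promoters. For width they were 0 of 10, against 0.255%, 0.109%, 0.0274% and 0.21%, with 1, 0, 0 and 1 genes at an unadjusted p under 0.05, beside 19.7%, 8.76%, 5.13% and 16.0%. With background shares this small, a count of 0 of 10 does not set the PRC2 genes apart.

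The median centred log2 fold difference of the 10 genes was 0.10 in Y641F, 0.07 in A677G, 0.01 in the LOF line and 0.05 in GOF against the rest, beside 0.02, 0.01, 0.01 and 0.01 over all promoters. The 40 single values lay between -0.17 and 0.33, with SEs of 0.07 to 0.15. The plot of differences shows them with the other measures.

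**Figure D3:**
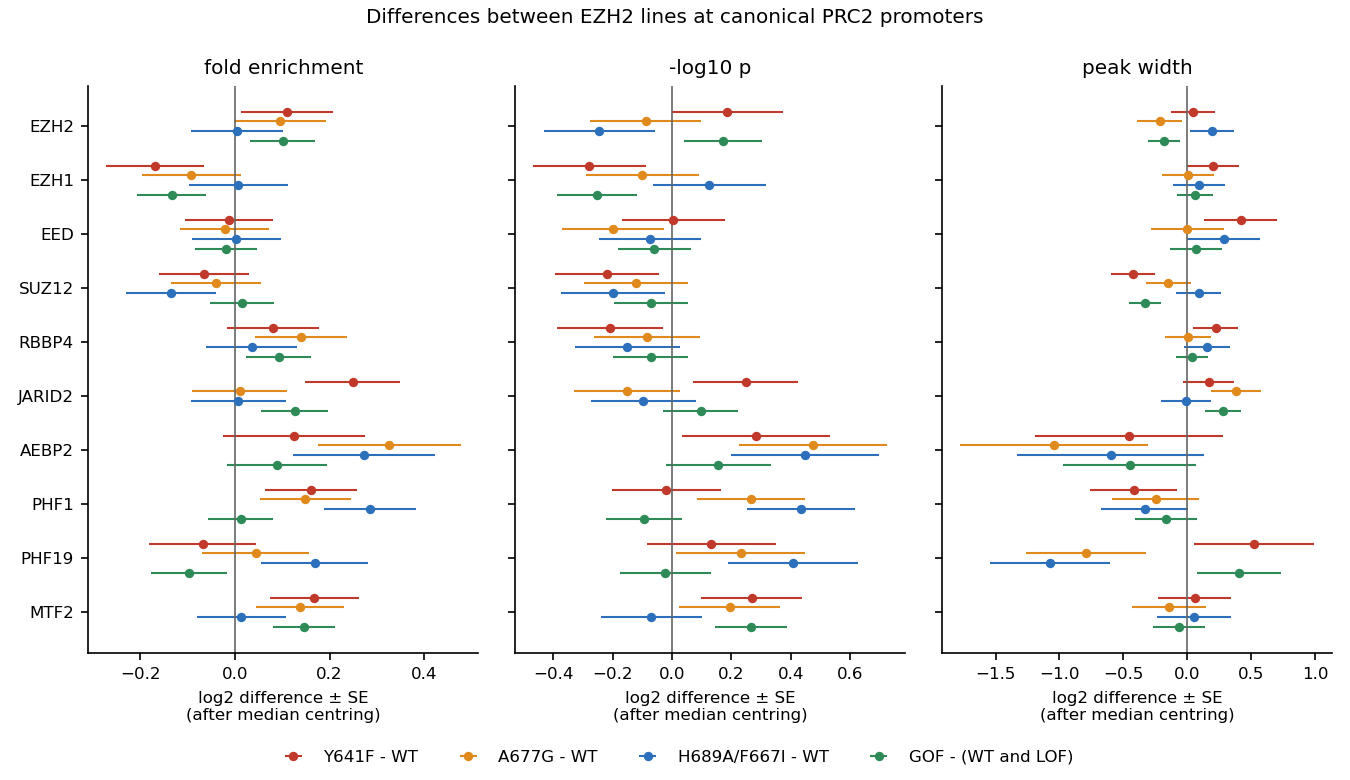
Centred log2 difference ± SE (limma, 8 libraries) at the 10 canonical promoters for fold enrichment, −log10 p and peak width, with 4 contrasts per gene in colour. Fold differences stay between -0.17 and 0.33, and the width bars of AEBP2, with an SE of 0.73 against WT, are the longest.

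As deposited, the library medians of GOF and the rest differed by -0.06 on the log2 scale for fold, -0.36 for −log10 p and -0.35 for width, and those of Y641F and WT by -0.10, -0.63 and -0.57. On that scale 5 of 10 genes, EED, EZH1, PHF1, RBBP4 and SUZ12, were called lower in −log10 p for Y641F, against 60.3% of promoters. EED alone was called for A677G, against 15.7%, and the same 5 genes for GOF against the rest, against 39.8%. The GOF libraries lay wholly below the others for −log10 p in EED (18% of promoters) and for width in EZH2, SUZ12 and RBBP4 (14.7%). Both the 5 of 10 and the 1 of 10 genes called stand beside shares of the same order over all promoters.

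The count of genes whose centred values did not overlap changed when single libraries were left out. MTF2 stayed in it for fold and −log10 p each time. With all libraries the count was 1 for fold and 1 for −log10 p. Over all promoters the GOF libraries lay above the rest at 5.06% and 4.39%, and below at 3.40% and 2.84%. With 1 library left out fewer values had to be separate, and the share over all promoters was higher each time. Without A677G replicate 2 the count was 3 for fold (EZH2, EZH1 and MTF2, beside 15.2% of all promoters in either direction) and 4 for −log10 p (these and RBBP4, beside 13.4%). Without H689A/F667I replicate 2 it was 2 for fold (MTF2 and RBBP4, 14%) and 2 for −log10 p (MTF2 and AEBP2, 11.7%). For width it was 0 with all libraries, where 8.54% of promoters had the GOF libraries above and 2.52% below. It was 1 without WT replicate 2 (SUZ12, 13.4%), Y641F replicate 1 (EZH2, 15.6%), Y641F replicate 2 (JARID2, 15.9%), A677G replicate 1 (SUZ12, 16.1%) or H689A/F667I replicate 2 (JARID2, 16.1%).

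Away from promoters, the 10 genes had 55 merged open regions more than 1 kb from any protein-coding TSS, called intragenic here. Of these 53 touched the gene body, and 2 lay outside it within 5 kb of one of the gene's TSSs, at -48.2 kb from the canonical TSS of EED and at -20.1 kb from that of PHF19. The regions differed in number between the lines. There were 29 and 27 in the WT libraries, 9 and 10 in Y641F, 14 and 16 in A677G, and H689A/F667I had 18 and 19. All genes together had 26223 and 25208, 7268 and 12221, 12684 and 16699, and 17840 and 18179. GOF libraries had 12.25 ± 3.30 (SD, n = 4) such regions in PRC2 genes and the rest 23.25 ± 5.56 (SD, n = 4), in an exact two-sided permutation test with p = 0.0286, the smallest possible. As a share of all intragenic regions this was 0.103% ± 0.0181 against 0.106% ± 0.00410 (SD, n = 4, exact permutation p = 0.8). The number in all genes also differed, 12218 ± 3864 against 21862.5 ± 4470 (SD, n = 4, exact permutation p = 0.0286). With 26350 peaks in each list the counts were 8 and 9 in WT, 9 and 8 in Y641F, 12 and 5 in A677G, and H689A/F667I had 10 and 5.

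JARID2, spanning 276 kb, held 27 of the 55 regions, AEBP2 11, EZH2 6, EED and MTF2 4 each, EZH1 2 and PHF19 1, which lies outside the gene body. SUZ12, RBBP4 and PHF1 held none. Of the 55, 5 were open in all 8 libraries (8.09% of 46497 intragenic regions over all genes) and 26 in 1 library (46.1%). The map of intragenic regions shows each of them by distance from the TSS.

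**Figure D4:**
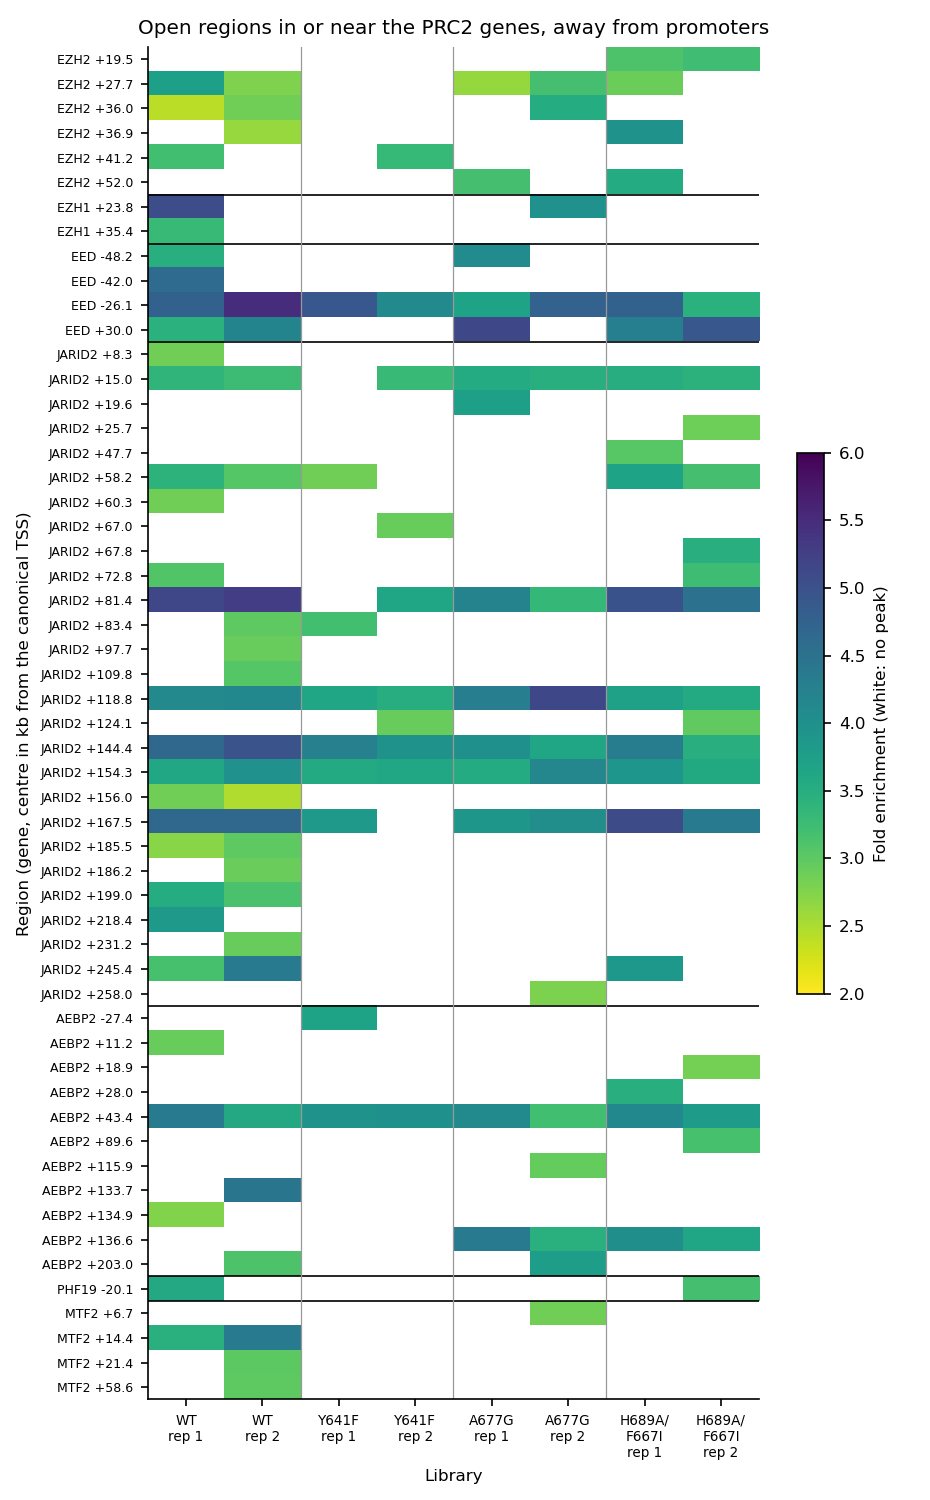
Fold enrichment of 55 open regions away from promoters, 53 in the PRC2 gene bodies and 2 within 5 kb of a TSS (rows, labelled by gene and distance of the centre from the canonical TSS in kb) in the 8 libraries (columns), white where no peak was called. The 5 rows filled in all columns are EED -26.1, JARID2 +118.8, +144.4 and +154.3, and AEBP2 +43.4, and the WT columns hold 29 and 27 filled cells against 9 and 10 in Y641F.

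Of 17 regions open in both WT libraries, 8 had no peak in either Y641F library (46.5% over all genes), 6 none in A677G (27.6%) and 5 none in H689A/F667I (18.8%). Of 16 regions with no peak in either WT library, 0 were open in both Y641F libraries (1.09% over all genes). In A677G 1 was open in both libraries (1.7%), and in the LOF line 2 were (2.79%). With 26350 peaks in each list, 6 regions were open in both WT libraries and 0 of them were lost in any mutant, against 22.9%, 12.7% and 10.8% over all genes. At a minimum −log10 q of 5, both WT libraries held 5 of the regions. Of these Y641F lost 5 (63.3% over all genes), A677G 4 (43.7%) and the LOF line 3 (31.2%).

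Among the regions strongest in WT, a region of JARID2 81.4 kb past its TSS (chr6:15327256-15327710), outside the canonical exons, had a fold of 5.15 and 5.28 in WT, 3.64 in Y641F replicate 2, 4.21 and 3.34 in A677G, and H689A/F667I had 4.99 and 4.51. Y641F replicate 1 had no peak there. Another, 167.5 kb past the TSS (chr6:15413114-15413974), had 4.66 and 4.65 in WT, 3.86 in Y641F replicate 1, 3.89 and 4.02 in A677G, and H689A/F667I had 5.09 and 4.37. It had no peak in Y641F replicate 2, so the Y641F libraries differed in which of these they lacked. Of the JARID2 regions open in both WT libraries, 3 more had no peak in any of the 6 mutant libraries. They were centred at 155.96, 185.46 and 199.03 kb and were named after their values were seen. The share of all WT-open intragenic regions with this pattern was not counted, so these 3 cannot be called unusual. With 26350 peaks in each list, 0 of the PRC2 regions open in both WT libraries were lost in any mutant line.

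In EZH2 itself, a region 27.7 kb past the TSS (chr7:148856089-148857170) had a fold of 3.74 and 2.78 in WT, 2.63 and 3.18 in A677G and 2.90 in H689A/F667I replicate 1, and no peak in Y641F or in H689A/F667I replicate 2. A region at 36.05 kb (chr7:148847918-148848564) had 2.41 and 2.86 in WT and 3.52 in A677G replicate 2, and had no peak in the other 5 libraries. In MTF2, a region 14.45 kb past the TSS (chr1:93093502-93093965) was open in WT alone, at 3.46 and 4.33. The share of all intragenic regions open in WT alone was not counted. In EED, a region 30.0 kb past the TSS (chr11:86274532-86274911) had 3.44 and 4.20 in WT, 5.14 in A677G replicate 1, and 4.27 and 4.91 in H689A/F667I, with no peak in the other 3 GOF libraries.

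Both regions gained in a mutant are named after their values were seen. An AEBP2 region 136.6 kb past the TSS (chr12:19575891-19576209) had a fold of 4.33 and 3.46 in A677G and of 4.01 and 3.64 in H689A/F667I, and no peak in WT or Y641F. An EZH2 region 19.5 kb past the TSS (chr7:148864387-148865189) had 3.12 and 3.22 in H689A/F667I and no peak elsewhere. These peaks were 200 to 803 bp wide.

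The 5 regions open in all libraries lie outside the canonical exons. At the EED region centred at -26.1 kb from the canonical TSS, still in the annotated gene body, the fold was 4.76 and 5.49 in WT, 4.92 and 4.09 in Y641F, 3.68 and 4.74 in A677G, and H689A/F667I had 4.76 and 3.44. At the JARID2 region 144.4 kb past its TSS it was 4.64 and 4.98 in WT, 4.26 and 3.95 in Y641F, 4.00 and 3.66 in A677G, and H689A/F667I had 4.33 and 3.49. All 6 mutant values there lay below both WT values as deposited, and the share of regions with this order was not counted. After centring the log2 difference from WT was -0.01 ± 0.14 (SE) in Y641F (adjusted p = 0.98, limma). It was -0.21 ± 0.14 in A677G and -0.23 ± 0.14 in H689A/F667I (adjusted p = 0.52 and 0.65). The 200 bases around the middle of the stretch shared by all libraries are printed for the EED region and the JARID2 region with the highest WT fold among them. They overlap no annotated exon (hg38, plus strand, chr11:86218580-86218779 and chr6:15390335-15390534):
EED upstream region: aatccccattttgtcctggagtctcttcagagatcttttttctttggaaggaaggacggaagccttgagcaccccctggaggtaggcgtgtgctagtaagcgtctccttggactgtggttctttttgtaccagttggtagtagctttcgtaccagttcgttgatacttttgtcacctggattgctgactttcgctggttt
JARID2 intron region: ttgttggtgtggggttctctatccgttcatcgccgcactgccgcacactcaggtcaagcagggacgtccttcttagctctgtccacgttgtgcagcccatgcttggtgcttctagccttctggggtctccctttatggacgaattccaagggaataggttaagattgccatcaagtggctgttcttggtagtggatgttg
No letters are in capitals because neither holds an AP-1 site (TGANTCA), CTCF core (AGGGGGC), TEAD site (GGAATG) or GATA site (AGATAA) on either strand, which stood in 8.82%, 10.3%, 10.8% and 10.1% of 3649 always-open intragenic regions cut to the same length.

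In limma over 3762 intragenic regions open in all libraries, 0 of these 5 passed an adjusted p of 0.05 after centring. For fold the shares called over all regions were 0%, 0%, 0.0266% and 0.0532% for Y641F, A677G, H689A/F667I and GOF against the rest. For −log10 p they were 1.62%, 0.0797%, 0% and 0%, and for width 0%, 0%, 0% and 0.0797%. The largest fold difference was at JARID2 118.8 kb past the TSS, 0.30 ± 0.14 (SE) in A677G (adjusted p = 0.34), and this and its GOF contrast were the only 2 of 20 fold values with an unadjusted p under 0.05, beside 19.0%, 13.3%, 8.80% and 16.2% of all regions in the 4 contrasts. For width, 1 of 20 values had one (11.7%, 7.74%, 6.01% and 10.6%), and for −log10 p 0 of 20 (19.3%, 12.8%, 9.52% and 16.0%). On the scale as deposited 1 of the 5 regions was called in −log10 p, the JARID2 region at 118.8 kb, with a Y641F difference of -0.73 ± 0.27 (SE; limma, adjusted p = 0.043), where 28.8% of all regions were called lower.

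Since the lines carry an EZH2 coding sequence from a vector, peaks on the 18 interior coding exons of EZH2 were counted in each library. There were 0 and 1 in WT, 0 and 0 in Y641F, 0 and 0 in A677G, and H689A/F667I had 2 and 0, on exons 2 and 4. Over all 99471 such exons of genes with at least 10 of them, 0.394% to 1.56% carried a peak. No library had a peak on more than 2 of the 18 EZH2 exons.

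The RefSeq promoter table matched all 10 genes with 14 windows. Their GC content ranged from 52.3% for EED to 79.7% for the canonical PHF19 start, with a median of 71.2% against 62.3% over all 21548 windows, and they held 16 to 48 CpG sites. A GC box stood in 12 of 14 windows and in 56.8% of all, and a CCAAT box in 8 of 14 and in 34.8%. An E2F site, NRF1 core, ETS core and YY1 core stood in 1 of 14 each. EZH2, RBBP4, JARID2 and PHF19 have 2 windows each, and those of RBBP4 overlap.

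Genes around the complex were examined by the same rules. Of 5 other PRC2 partners, 4 had a promoter peak in all 8 libraries and EZHIP, an inhibitor of PRC2 active in germ cells, had none. Of 18 core genes of PRC1, the partner complex that binds the PRC2 mark, 12 were open in all 8 libraries, 5 in some and PCGF2 in none. EZHIP and PCGF2 are named here after their values were seen. None of these genes passed an adjusted p of 0.05 in limma in any measure or contrast after centring. In the 4 contrasts together, 5 of 16 fold values of the 4 tested PRC2 partners and 7 of 48 of the 12 tested PRC1 genes had an unadjusted p under 0.05, beside the 22.3%, 14.3%, 8.86% and 18.1% of all promoters given above.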

How the data were processed

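ATAC-seq peak lists of 8 HEK293T libraries were used, 1 per library, grouped by sample title. The authors trimmed reads with Trim Galore 0.6.5, aligned them to GRCh38/hg38 with BWA 0.7.17, removed duplicates with Samtools and called broad peaks with MACS2 2.2.7.1 in each library. The deposited fold enrichment is a ratio, the pileup of a library over its own local background, and it was not scaled between libraries. The deposited −log10 p and −log10 q are those of MACS2, and the deposited score, a whole-number multiple of −log10 q, was not used. Tn5 shifting, mitochondrial filtering and depth are not given in the sources used here. The labels' protocol names the library kit step after CUT&Tag. The study's count-based test needs reads, which were not used here.

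Peaks on chromosomes 1 to 22 and X were joined to GENCODE 44 with Python 3.11.15 and pandas 2.3.3. A promoter value is that of the peak with the highest −log10 p within 1 kb of the canonical TSS. Regions are peaks of all libraries merged where they shared at least 1 bp. Promoter sequences are from RefSeq. Where no peak was called, signal below the caller's threshold may remain.

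limma 3.58.1 (R 4.3.3) was fitted to log2 values of all 10968 promoters open in all 8 libraries, or 3762 intragenic regions, with Benjamini-Hochberg adjustment over all of them. Genes without a peak in some library could not enter. With 2 libraries per line the p-values measure the spread between libraries, which may be technical. GOF libraries were also compared with WT and LOF libraries by exact two-sided permutation over 70 assignments. This treats the 2 libraries of a line as separate units, so its p-values describe libraries and not independent lines. A comparison of 2 against 2 libraries cannot reach p under 0.05 by permutation, so single lines have limma values alone. In data simulated for Y641F against WT over 10968 promoters, 191 of 200 planted changes of 1 log2 unit were called for fold, 96 for −log10 p and 23 for width. The spreads were shuffled among promoters. Smaller changes were not planted, so these counts do not cover the fold differences of -0.17 to 0.33 at the PRC2 promoters.

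The genes, lists and tests were chosen with earlier results of these data known. All 10 genes are named. Intragenic regions open in both WT libraries are counted, and those with the 3 highest mean WT folds per gene may be named. Other lists are given by counts. The alternatives were no centring, a −log10 q of at least 5, 26350 peaks per library, a window of 500 bp, all coding TSSs, all peaks of a window or region, a cover of 50%, promoter windows of 5 kb, a replicate block and leaving out each library. The alternatives at the internal PHF19 promoter were chosen after seeing the data.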

Additional observations from a re-analysis of the deposited data

Results flagged for a closer look

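Among 60 groups of 4 libraries (10 promoters, 3 measures, GOF libraries or the rest), 9 had a library far from the other 3. The cutoff would flag about 1 in 20 groups of 4 values drawn from 1 population. Each group here pools 2 lines with differing library medians, and the measures of a peak depend on each other. The share over all promoters was not counted, so 9 of 60 cannot be called an excess. These values are as deposited, not centred. The fold of AEBP2 in H689A/F667I replicate 2 was 5.46, against 3.70 to 3.87 in the WT and other LOF libraries, and its width there was 476 bp against 1473 to 1542 bp. Both values belong to the same peak, so they are not separate observations. A677G replicate 2 stood above the other GOF libraries in the fold of EZH1, 5.21 against 4.33 to 4.43, and of SUZ12, 4.40 against 3.92 to 3.94. In MTF2, the fold of Y641F replicate 1 was 3.79 against 3.95 to 3.98 in the other GOF libraries, and the width of WT replicate 1 was 2160 bp against 1674 to 1737 bp. The width of EED in Y641F replicate 2 was 1529 bp against 896 to 1003 bp. H689A/F667I replicate 1 stood below the WT and other LOF libraries in the width of EZH2, 1511 bp against 1627 to 1645 bp. The same library stood below them in the width of JARID2, 825 bp against 1156 to 1174 bp. For EZH2 this order did not hold after centring, where both H689A/F667I libraries lay above WT in width.

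In 3 cases both libraries of 1 mutant lay above WT and both of another below it, after centring, and the difference between mutants was not tested. The share of all promoters with such an order was not counted, so these cases cannot be called unusual. For the −log10 p of EZH2, Y641F (0.19) and H689A/F667I (-0.25) were 0.43 apart on the log2 scale. For that of EZH1, H689A/F667I (0.13) and Y641F (-0.28) were 0.40 apart. For the width of EZH2, H689A/F667I (0.19) and A677G (-0.22) were 0.41 apart.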

How the results depend on the processing

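The centred limma calls at the 10 promoters, 0 in each of 3 measures and 4 contrasts, were 0 under all alternatives that kept centring and without each library. Genes without a peak in some library under an alternative could not be called there. Of 120 differences, 48 were tested with a −log10 q of at least 5, 96 with the 500 bp window and 108 with equal peak number. Without centring 5, 1 and 5 genes were called in −log10 p for Y641F, A677G and GOF against the rest, 1 in width for Y641F, and 1 of 5 always-open intragenic regions in −log10 p for Y641F, where 28.8% of 3762 were called lower. Calls over all promoters, 276, 0, 0 and 10 for fold, ranged from 53 to 546 for Y641F and from 5 to 79 for GOF against the rest, and without 1 library from 0 to 357 and from 0 to 115. For −log10 p they were 242 for Y641F (84 to 6628), 0 for A677G (0 to 1732) and 42 for GOF (18 to 4385), and for width 28 (0 to 998), 12 (0 to 87) and 23 (2 to 442), with 3 for H689A/F667I (0 to 7). Leaving out 1 library gave 0 to 255 and 0 to 75 for −log10 p, and 0 to 360 and 0 to 133 for width.

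The number of genes with separate centred GOF values was 1 for fold and for −log10 p, in both cases MTF2. It was 0 in both with a −log10 q of at least 5, where MTF2 was not open in every library and could not be counted. For fold it was 0 without centring. Without 1 library it ranged from 1 to 3 for fold and from 1 to 4 for −log10 p. For width it was 0, but 1 with equal peak number or all peaks of the window, 3 without centring, and 0 to 1 without 1 library.

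With equal peak number, 0 intragenic regions were lost in any mutant, 0 were gained in A677G and 1 in H689A/F667I. Under the stricter q, 5, 4 and 3 of 5 were lost in Y641F, A677G and H689A/F667I (63.3%, 43.7% and 31.2% over all genes), and gains could not be counted because 0 of the regions in PRC2 genes were closed in both WT libraries. With a cover of 50%, 7, 4 and 3 of 10 were lost (63.7%, 45.0% and 32.7%). EZH2 exon peaks, 3 in all, were 0 with the stricter q and 1 with equal peak number. The share of intragenic regions in PRC2 genes differed by -0.0028 percentage points in GOF libraries, and by 0.0103 with equal peak number and 0.0066 with windows of 5 kb (exact permutation p = 0.71 and 0.69). Without 1 library the difference ranged from -0.0098 to 0.0042, the latter without Y641F replicate 2. The cause was not tested.

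Of 120 differences (10 genes, 3 measures, 4 contrasts) 41 changed sign without centring, and 1 of these passed the threshold: EED −log10 p in Y641F, 0.0049 centred and -0.62 as deposited (adjusted p = 0.014, limma). In the same contrast EZH2, JARID2, MTF2 and PHF19 became -0.44, -0.38, -0.36 and -0.50, not past it. With all coding TSSs 10 of 120 changed sign, among them the fold of PHF19 in A677G (-0.34) and H689A/F667I (-0.20). Leaving out 1 library changed 6 to 15 signs, the replicate block 0 and the 500 bp window 0 of the 96 it could test. None of these passed the threshold.

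Among the differences printed and the largest of each contrast, signs changed as follows, none past the threshold. The fold of EED ranged without 1 library from -0.096 to 0.070 in Y641F, from -0.10 to 0.061 in A677G and from -0.080 to 0.086 in H689A/F667I, and that of EZH1 from -0.22 to 0.036 in A677G. In H689A/F667I, EZH1 ranged from -0.035 to 0.049 and EZH2 from -0.053 to 0.060. There EED, EZH1 and EZH2 were -0.020, -0.016 and -0.020 without centring and -0.0057, -0.0015 and -0.0050 with equal peak number, EED and EZH2 -0.00071 and -3.65e-05 with all coding TSSs, and EZH2 -0.043 with the stricter q. RBBP4 width in GOF was -0.31 without centring, -0.032 with the stricter q and -0.054 to 0.12 without 1 library. For −log10 p, AEBP2 in Y641F was -0.35 and MTF2 in GOF -0.093 without centring, and AEBP2 in H689A/F667I ranged from -0.029 to 0.92 without 1 library, the lowest without its own replicate 2. For width, PHF19 in Y641F was -0.046 without centring, -0.21 with all coding TSSs and -0.17 (WT replicate 1) to 1.22 (WT replicate 2) without 1 library, and 0.21 in H689A/F667I with all coding TSSs. AEBP2 width in GOF was 0.032 with all peaks and -0.91 to 0.027 without 1 library, the latter without Y641F replicate 1. The internal PHF19 promoter, -0.34 in Y641F, was -0.44 without centring (adjusted p = 0.035, limma), -0.34 with the replicate block (adjusted p = 0.080), and -0.38 to -0.30 without 1 library.

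Same-numbered libraries did not deviate together after centring (correlations of -0.0339 to 0.0531). Centring removes a shift of a whole library, so these correlations cannot tell whether same-numbered libraries were prepared together. With the replicate block 0 of 10 genes were called in each measure and contrast, calls over all promoters in −log10 p were 117 for Y641F and 21 for GOF, and the share of intragenic regions kept its difference of -0.0028 (exact permutation p = 0.78, 36 assignments). Depth is unknown, so the absence of a peak and low depth cannot be told apart.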
